A study of Mus musculus with 18 samples.

Results

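Slc34a2, Kcnk5, Etnppl, Nrep, Hsd3b2, Usp2, Lipg and Upp2 are 8 genes, of 23930 measured, that lie outside the pathways usually followed in alcohol-fed liver. They were picked because their RNA moved strongly with ethanol in earlier fits to these same libraries, so the ethanol differences below are descriptions without tests. All 8 passed the filter on low values (at least 1 CPM in at least 3 libraries, met by 11720 genes), where CPM is the read count of a gene scaled to the total of its library. Slc34a2 could pass only through the ethanol-fed groups, since its highest pair-fed value was 1.57 CPM and a single pair-fed library exceeded the minimum.

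Liver RNA came from Yap fl/fl mice, all injected when 8 weeks old with an adeno-associated virus (AAV) whose TBG promoter acts in hepatocytes. Knockout mice received AAV-TBG-Cre (0.5 in units of 1e11 genome copies), overexpression mice AAV-TBG-YAP-P2A-EGFP (2 in that unit) and control mice AAV-TBG-GFP (2 in that unit), so the knockout dose of virus was lower. Feeding began 2 weeks later with 5 days of acclimation, then 4 weeks of Lieber-DeCarli liquid diet with ethanol (ethanol-fed) or without it (pair-fed). The last step was a gavage of ethanol (5 g/kg) or of maltose-dextrin, 9 hours before death. Each of the 6 groups had 3 libraries, 18 in all, and the labels do not say that each is a separate animal, so p-values measure the spread between libraries. The promoter targets hepatocytes, so other liver cells keep their Yap alleles. In whole liver RNA, fewer cells of a type and less RNA per cell cannot be told apart.

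A library held 4680152 to 5806228 reads, and 3 reads corresponded to 0.517 to 0.641 CPM. Yap1 stood at 3.34 to 15.1 CPM in the knockout libraries, at 57.6 to 214 CPM in the overexpression libraries and at 51.5 to 66.6 CPM in the controls. Pair-fed overexpression replicate 1 was the library at 57.6 CPM, inside the control range. Xist exceeded the Y-linked Ddx3y in 5 libraries, pair-fed control replicates 2 and 3 and all 3 pair-fed knockout libraries, while the other 13 had the opposite pattern. The knockout ethanol comparison and the pair-fed comparison of overexpression with knockout therefore cannot be told apart from this pattern, and the pair-fed control group mixes both. The overexpression ethanol comparison and all comparisons among ethanol-fed groups are matched on it. The sum of 5 hepatocyte markers was 38627 to 44588 CPM in ethanol-fed overexpression, 48922 to 61271 CPM in ethanol-fed knockout and 51431 to 66712 CPM in ethanol-fed control livers. In pair-fed livers it was 40502 to 56495, 62089 to 81014 and 51336 to 77511 CPM in that order. The overexpression sums thus lay below those of the other ethanol-fed groups and, when pair-fed, below those of the knockout. The part of these markers in the genotype differences was not tested.

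The products of these genes have different roles. Slc34a2 encodes a sodium-dependent phosphate carrier of epithelial surfaces, and Kcnk5 a two-pore potassium channel that sets the resting potential and responds to pH. Usp2 encodes a deubiquitinase whose liver transcription is rhythmic and driven by the circadian clock, and Lipg encodes endothelial lipase, a secreted phospholipase that acts on high-density lipoprotein. Etnppl breaks down phosphoethanolamine, a precursor of phosphatidylethanolamine, Upp2 cleaves uridine to uracil, and Hsd3b2 belongs to the 3beta-hydroxysteroid dehydrogenases. Nrep encodes the small protein P311, linked to TGF-beta production and cell migration.

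The 300 bases around a transcription start (250 before and 50 after, RefSeq, build GRCm38.p6) were searched on both strands for 6 short motifs, in 8 windows that belong to 6 of the genes. Sequences of Nrep and Lipg are not shown. The 3 windows below are examples that hold the letters of a TEAD motif (GGAATG, bound by the partners of YAP), a clock E-box (CACGTG) or a nuclear receptor half-site (AGGTCA), with matches in capitals. An Etnppl window that also holds such matches is described but not shown. The Slc34a2 window is chr5:53049103-53049402 on the plus strand, the Kcnk5 window chr14:20181733-20182032 on the minus strand, and the second Upp2 window chr2:58754934-58755233 on the plus strand.
Slc34a2: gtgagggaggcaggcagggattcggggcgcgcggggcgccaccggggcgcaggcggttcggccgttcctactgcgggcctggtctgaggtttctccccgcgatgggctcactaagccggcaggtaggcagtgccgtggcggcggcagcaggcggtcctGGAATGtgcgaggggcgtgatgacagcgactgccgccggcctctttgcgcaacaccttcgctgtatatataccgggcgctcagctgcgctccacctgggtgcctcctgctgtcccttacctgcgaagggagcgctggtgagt
Kcnk5: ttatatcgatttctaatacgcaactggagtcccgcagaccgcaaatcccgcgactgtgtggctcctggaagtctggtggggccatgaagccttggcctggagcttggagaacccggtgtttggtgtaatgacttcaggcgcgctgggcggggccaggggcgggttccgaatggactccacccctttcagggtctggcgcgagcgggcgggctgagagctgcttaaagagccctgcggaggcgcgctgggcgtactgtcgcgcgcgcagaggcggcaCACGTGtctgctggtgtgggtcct
Upp2: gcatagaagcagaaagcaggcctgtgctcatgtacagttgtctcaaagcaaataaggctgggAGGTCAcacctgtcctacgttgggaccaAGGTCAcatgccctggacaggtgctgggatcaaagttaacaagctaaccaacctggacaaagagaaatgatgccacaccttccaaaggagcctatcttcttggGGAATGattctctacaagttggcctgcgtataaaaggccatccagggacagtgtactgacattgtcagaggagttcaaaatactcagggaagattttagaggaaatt
The Slc34a2 window has 1 TEAD match at -92 from the start, and GGAATG or its complement occurs in 14.7% of all 32851 windows. The Kcnk5 window has 1 E-box at 26 past the start, a motif found in 7.15% of windows. The Upp2 window holds a TEAD match at -57 and half-sites at -188 and -160, and AGGTCA or its complement is present in 16.3% of windows. One of the Etnppl windows also had a TEAD match (-22) and a half-site, read as TGACCT on the printed strand (8), and the other Upp2 window had CCAAT (-73), a box found in 37.4% of windows. No letters of the D-box (TTATGTAA) or the cyclic AMP element (TGACGTCA) occurred in these 8 windows, and the Usp2 and Hsd3b2 windows held none of the 6 motifs. These matches describe the letters alone.

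Slc34a2 was the member that was higher with ethanol, and its pair-fed level was close to the limit of detection. Knockout livers had 63.9, 41.9 and 8.52 CPM when ethanol-fed and 0.373, 0.427 and 1.57 CPM when pair-fed. In overexpression livers Slc34a2 had 8.67, 12.9 and 9.82 CPM with ethanol and 0, 0.522 and 0 CPM without. Ethanol-fed controls had 25.8, 30.7 and 13.9 CPM, against 0.700, 0.547 and 0.191 CPM in pair-fed controls. All 9 ethanol-fed libraries were above all 9 pair-fed libraries. The reads of the groups were 622 against 13 in knockout, 175 against 3 in overexpression and 384 against 8 in control livers. Per read sequenced this made ratios of 46.1, 57.3 and 47.6 in the same order. These ratios rest on few pair-fed reads, and no interval is given since the gene was picked on this difference. Of the 13 pair-fed knockout reads 9 came from replicate 3, without which the knockout ratio was 95.4, and without ethanol-fed knockout replicate 1 it was 30.4. The 3 pair-fed overexpression reads all came from replicate 2. Without ethanol-fed knockout replicate 3 the knockout log2 difference was 4.95. On the log2(CPM + 1) scale of the fit, which understates such changes, the ethanol difference was 4.12 in knockout, 3.30 in overexpression and 3.99 in control livers (SE 0.50 each). It ranged from 1.00 to 5.82 over the 3 genotypes as the pseudocount ran from 10 to 0.1. The 6 cholangiocyte markers summed to 34.8 to 41.4 CPM in ethanol-fed and 37.8 to 48.2 CPM in pair-fed knockout livers. The same sums were 19.6 to 38.5 and 16.5 to 115.5 CPM in overexpression and 32.4 to 40.3 and 26.1 to 41.7 CPM in control livers, so that the marker sums of the diets overlapped in all 3 genotypes. Their part in the Slc34a2 difference was not tested.

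Kcnk5 was lower with ethanol in each genotype without overlap. The channel gene had 28.8, 23.8 and 37.7 CPM in ethanol-fed and 101.4, 120 and 99.6 CPM in pair-fed knockout livers. Overexpression livers had 40.3, 28.2 and 57.5 CPM with ethanol and 244, 133 and 179 CPM when pair-fed. In controls the values were 13.5, 19.9 and 31.2 CPM with ethanol and 136, 114.8 and 190 CPM without. The highest ethanol-fed library of all groups (57.5 CPM) stayed below the lowest pair-fed one (99.6 CPM). Group means were 3.56-fold lower in ethanol-fed knockout, 4.42-fold lower in ethanol-fed overexpression and 6.80-fold lower in ethanol-fed control livers.

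Usp2 had the most even ethanol difference of the 8 genes across genotypes. It stood at 28.0, 27.5 and 41.9 CPM in ethanol-fed and 115.4, 149 and 167 CPM in pair-fed knockout livers. The deubiquitinase gene had 36.7, 30.8 and 49.4 CPM in ethanol-fed overexpression livers and 183, 135 and 138 CPM in pair-fed ones. Ethanol-fed controls had 50.8, 35.9 and 33.8 CPM, and pair-fed controls 138, 131.2 and 174 CPM. The 9 ethanol-fed libraries all lay at or below 50.8 CPM, less than any pair-fed library. Log2 differences were -2.12 in knockout, -1.95 in overexpression and -1.86 in control livers (SE 0.22 each).

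Lipg was set apart by its pair-fed overexpression group. Lipg had 10.99, 14.5 and 13.6 CPM in ethanol-fed and 34.4, 61.3 and 68.1 CPM in pair-fed knockout livers. In overexpression livers it had 12.1, 17.7 and 30.8 CPM with ethanol but 183, 126.6 and 110 CPM when pair-fed. Controls had 22.4, 12.6 and 14.9 CPM with ethanol and 45.0, 49.3 and 56.8 CPM without. Diets did not overlap in any genotype, and all 3 pair-fed overexpression libraries exceeded all other 15 libraries. The group means were 4.19-fold lower with ethanol in knockout, 6.92-fold lower in overexpression and 3.03-fold lower in control livers.

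Etnppl, the phosphoethanolamine phospho-lyase, differed least with ethanol in the knockout. Its levels were 48.2, 66.8 and 74.7 CPM in ethanol-fed and 134, 121 and 81.5 CPM in pair-fed knockout livers. Overexpression livers had 45.5, 51.8 and 15.3 CPM with ethanol and 107.9, 84.0 and 100.8 CPM when pair-fed. In control livers the values were 38.8, 10.8 and 22.9 CPM with ethanol and 202, 80.3 and 130 CPM without. The diets did not overlap within a genotype, although in the knockout the nearest pair of libraries lay at 74.7 and 81.5 CPM. The means were 1.77-fold lower with ethanol in knockout, 2.60-fold lower in overexpression and 5.69-fold lower in control livers.

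Upp2 varied widely between libraries of one group. In ethanol-fed knockout livers Upp2 stood at 107.7, 72.0 and 436 CPM, and in pair-fed knockout livers at 293, 538 and 666 CPM. Ethanol-fed overexpression livers were low throughout, with 49.3, 56.7 and 31.3 CPM, against 516, 337 and 771 CPM in pair-fed ones. Ethanol-fed controls had 74.6, 336 and 302 CPM, and pair-fed controls 539, 372 and 529 CPM. Ethanol-fed knockout replicate 3 lay inside the pair-fed range, so the diets overlapped in the knockout, whereas they did not in overexpression or control livers. Means were 2.43-fold lower with ethanol in knockout, 11.8-fold lower in overexpression and 2.02-fold lower in control livers. The mean of the ethanol-fed controls rested on replicates 2 and 3. Without replicate 1 the control log2 difference was -0.57, against -1.26 with all libraries, and without knockout replicate 3 the knockout difference was -2.41, against -1.64.

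Hsd3b2 was lower with ethanol in every genotype. It had 8.06, 8.35 and 11.4 CPM in ethanol-fed and 24.3, 62.2 and 51.2 CPM in pair-fed knockout livers. For the steroid dehydrogenase the overexpression values were 25.6, 18.4 and 7.92 CPM with ethanol and 75.0, 37.7 and 63.8 CPM when pair-fed. The control values were 13.7, 6.37 and 4.86 CPM with ethanol and 74.2, 35.04 and 61.0 CPM when pair-fed. Diets did not overlap within a genotype, and the means were 4.95-fold, 3.40-fold and 6.82-fold lower with ethanol in knockout, overexpression and control livers. Mouse Hsd3b genes are close copies of each other, so reads of the amplicon could be shared among them, and the level of Hsd3b2 itself is uncertain to that extent.

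Nrep was the member whose overexpression groups overlapped. It had 4.58, 6.49 and 2.18 CPM in ethanol-fed and 28.0, 53.6 and 86.7 CPM in pair-fed knockout livers. Overexpression livers had 4.88, 20.3 and 5.00 CPM with ethanol and 25.2, 13.7 and 35.02 CPM when pair-fed. In controls it had 6.77, 5.02 and 4.69 CPM with ethanol and 34.1, 31.0 and 50.9 CPM without. Ethanol-fed overexpression replicate 2, at 20.3 CPM, was above pair-fed overexpression replicate 2, at 13.7 CPM. Means were 12.7-fold lower with ethanol in knockout, 2.45-fold lower in overexpression and 7.04-fold lower in control livers.

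**Figure D1:**
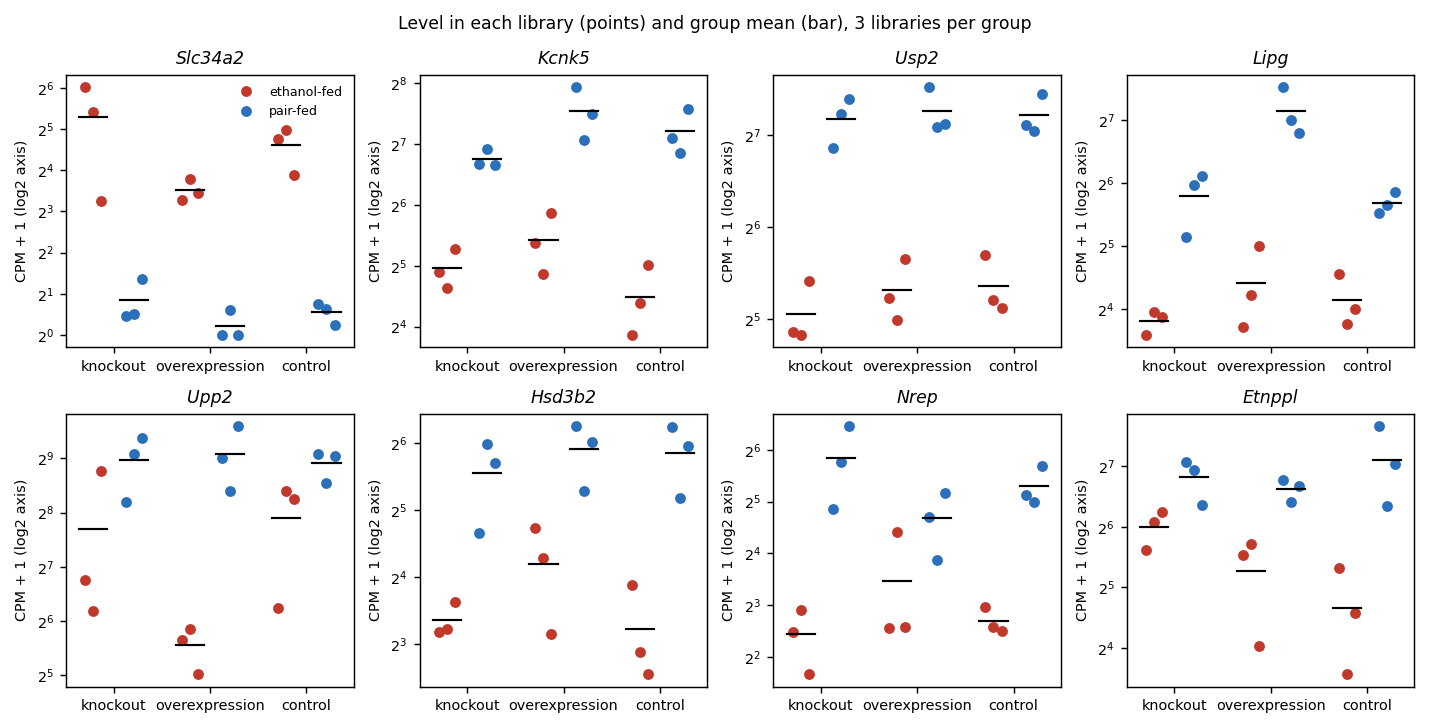
Level of each of the 8 genes in every library (points, 3 per group) and group mean (bar), as CPM + 1 on a log2 axis, with ethanol-fed left of pair-fed in each genotype. Slc34a2 is the gene that is higher with ethanol, the other 7 are lower, and the diets overlap for Upp2 in the knockout and Nrep in overexpression.

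Counted together, 7 of the 8 genes did not overlap between diets in knockout livers (1 higher, 6 lower), 7 in overexpression livers (1 higher, 6 lower) and 8 in control livers (1 higher, 7 lower). Across all genes tested the share without overlap was 28.5% in knockout (11.7% higher, 16.9% lower), 22.4% in overexpression (7.83% higher, 14.6% lower) and 22.1% in control livers (7.69% higher, 14.4% lower). Since the genes were picked on these contrasts, nothing is read from the counts. The sign of the 24 ethanol differences (8 genes in 3 genotypes) held in every one of the 31 alternatives that could be fitted to it. The alternatives use the libraries on which the genes were picked for strong movement, so nothing is read from this either. Within the libraries that have Ddx3y above Xist, where 1 pair-fed control library is left, the control differences were -2.68 for Kcnk5, -1.77 for Usp2, -1.42 for Lipg, -3.18 for Etnppl, -1.45 for Upp2, -3.13 for Hsd3b2, -2.45 for Nrep and 3.78 for Slc34a2. The knockout difference cannot be formed there. Kupffer cell markers were also lower in ethanol-fed knockout livers, where the 6 markers summed to 136 to 175 CPM against 385 to 458 CPM in pair-fed knockout livers. That sum was 306 to 334 against 222 to 470 CPM in overexpression and 236 to 436 against 356 to 387 CPM in control livers, and C1qa was at 0 in 5 of the 6 groups. The part of these markers in the 8 genes' differences was not tested.

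**Figure D2:**
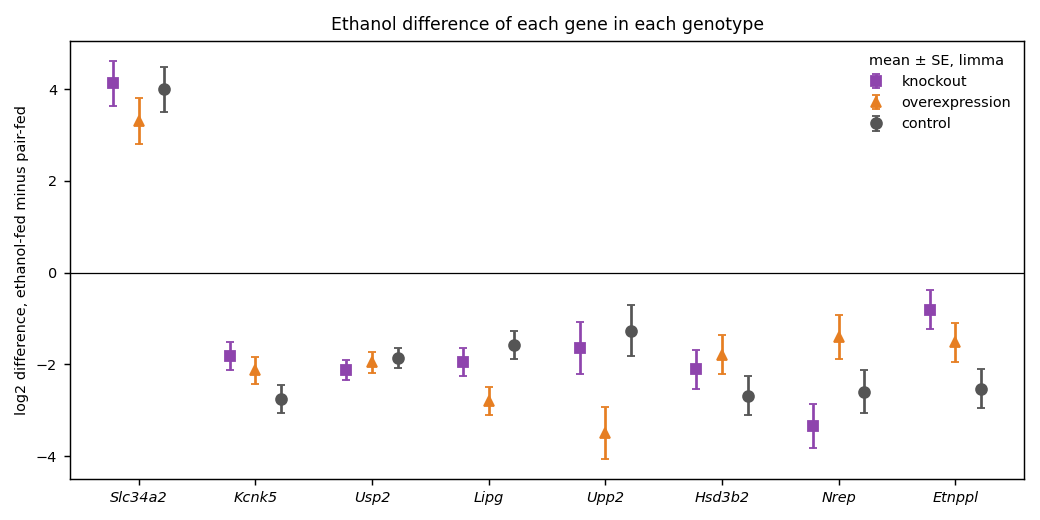
Ethanol difference (ethanol-fed minus pair-fed) of each gene on the log2(CPM + 1) scale in knockout, overexpression and control livers, with bars of 1 SE from the limma fit. The largest gap between genotypes is that of Upp2, at -3.50 in overexpression and -1.26 in control livers.

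The genes were not picked on differences between genotypes within a diet, although the same libraries entered the choice. Each group mean compared here also enters an ethanol difference that the choice used. An extreme level in 1 group can thus feed both, so the tests below are not independent of the choice. Gaps between the ethanol differences of 2 genotypes rest on values that the choice used and are given without a test. Each contrast between genotypes was fitted with limma over all 11720 genes, two-sided, with Benjamini-Hochberg adjustment and a threshold of 0.05. Of the 8 genes, 1 passed in any of the 6 contrasts, Lipg in pair-fed overexpression against pair-fed knockout livers.

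On pair-fed diet Lipg averaged 140 ± 38.4 CPM in overexpression and 54.6 ± 17.9 CPM in knockout livers (SD, n = 3 each). The log2 difference was 1.36 ± 0.31 (SE), with an adjusted p = 0.0271 from limma, and 1.37% of all genes passed in this contrast. The call was lost without pair-fed knockout replicate 1 (1.07, adjusted p = 0.118 from limma) or 2 (adjusted p = 0.0568), and without pair-fed overexpression replicate 1 (1.15, adjusted p = 0.143) or 2 (adjusted p = 0.0724), and with no filter on low values (adjusted p = 0.150). Pair-fed overexpression replicate 1, the library with the highest Lipg (183 CPM), is the one with Yap1 at the control level. The pair-fed knockout libraries all have Xist above Ddx3y and the overexpression libraries the reverse, so genotype and this pattern cannot be told apart here, and with a term for it the difference was 1.59 with an adjusted p of 0.999 (limma). Against pair-fed controls (50.3 ± 5.98 CPM) the Lipg difference was 1.43 ± 0.31, without overlap but short of the threshold (adjusted p = 0.0769, limma). Lipg was the 1 of 8 genes without overlap in that contrast, where 13.8% of genes did not overlap (6.27% higher, 7.57% lower), and 0.145% of genes passed. On ethanol the Lipg differences were smaller, 0.51 ± 0.31 against knockout and 0.21 ± 0.31 against control livers, neither past the threshold. The ethanol difference of Lipg was thus -2.79 ± 0.31 in overexpression and -1.57 ± 0.31 in control livers, a gap of -1.22. That overexpression difference stood at rank 6 from the lowest of all genes tested. The pair-fed overexpression level behind it is the same level compared here between genotypes. The 6 markers of sinusoidal endothelium, a cell type that can also make endothelial lipase, summed to 246.6 to 386 CPM in ethanol-fed and 359.6 to 373 CPM in pair-fed knockout livers. Their sums were 326 to 423 and 328 to 463 CPM in overexpression and 319 to 339 and 292 to 355 CPM in control livers, overlapping between diets in each genotype. Of these markers 1 was called higher with ethanol in knockout, 0 passed in overexpression, and 2 were higher and 1 lower in control livers. Their part in the Lipg differences was not tested.

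Upp2 was lower in ethanol-fed overexpression livers (45.8 ± 13.1 CPM) than in ethanol-fed controls (238 ± 142 CPM, SD, n = 3 each), by -2.12 ± 0.56 on the log2 scale. The 2 groups did not overlap, but the difference did not pass (adjusted p = 0.185, limma; 0.016 to 0.546 over the alternatives, and past the threshold with array weights alone). Slc34a2 also did not overlap in this contrast, at -1.04 ± 0.50 (adjusted p = 0.566, limma). That made 2 of 8 genes, both lower, where 15% of all genes did not overlap (7.43% higher, 7.54% lower) and 0.102% passed. Against ethanol-fed knockout livers Upp2 differed by -1.74 ± 0.56 in overexpression livers (adjusted p = 0.126, limma), and it was the 1 gene of 8 without overlap there, against 21.4% of all genes (8.94% higher, 12.5% lower). On pair-fed diet Upp2 averaged 541 ± 218 CPM in overexpression, 499 ± 190 CPM in knockout and 480 ± 93.4 CPM in control livers, with overlapping ranges. Between overexpression and control the ethanol difference of Upp2 differed by -2.23. In overexpression livers that difference stood at rank 3 from the lowest of all genes tested. The ethanol-fed overexpression level behind it is the same level compared here between genotypes.

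Etnppl averaged 63.2 ± 13.6 CPM in ethanol-fed knockout and 24.2 ± 14.1 CPM in ethanol-fed control livers (SD, n = 3 each). This difference of 1.496 ± 0.43 was without overlap, for 1 of 8 genes against 13.4% of all genes (8.23% higher, 5.21% lower), and did not pass (adjusted p = 0.340, limma; 0.0171% of genes passed). With array weights it did (adjusted p = 0.0492). Ethanol-fed overexpression livers had 37.5 ± 19.5 CPM of Etnppl, between the other groups and overlapping both. The ethanol difference of Etnppl was 1.72 higher in knockout than in control livers.

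None of the other genotype differences of the 8 genes passed, and some of them follow with their 95% intervals. Usp2 differed by -0.05 between ethanol-fed overexpression and control livers (95% interval -0.52 to 0.42) and by -0.30 between ethanol-fed knockout and control livers (-0.77 to 0.17). Kcnk5 was at 0.95 in ethanol-fed overexpression against control livers (0.33 to 1.57, adjusted p = 0.272, limma), with overlapping groups. In pair-fed overexpression against knockout livers Kcnk5 was at 0.75 (0.13 to 1.37), and there it and Lipg were the 2 of 8 genes without overlap, against 19.5% of all genes (9.05% higher, 10.4% lower). Hsd3b2 was at 0.95 in ethanol-fed overexpression against control livers (0.07 to 1.84), and Nrep at -1.11 in pair-fed overexpression against knockout livers (-2.09 to -0.12). Nrep also had the largest gap of ethanol differences between overexpression and knockout, 1.94. Slc34a2 was at -1.40 in ethanol-fed overexpression against knockout livers (-2.44 to -0.36), where knockout replicate 3, at 8.52 CPM, lay below the overexpression libraries and replicates 1 and 2 far above them. Its adjusted p of 0.168 (limma) became 0.00445 without that library, with a difference of -2.22.

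In pair-fed knockout against control livers all 8 genes overlapped, where 7.06% of all genes did not (3.84% higher, 3.22% lower) and 0.00853% passed, and the differences ran from -0.42 for Kcnk5 to 0.42 for Nrep. At an unadjusted p under 0.05 limma counted 0 of 8 genes in that contrast (3.13% of all genes) and 1 in ethanol-fed knockout against control (8.34%). The count was 1 in pair-fed (8.46%) and 3 in ethanol-fed overexpression against control (8.84%), and 3 in pair-fed (14.3%) and 2 in ethanol-fed overexpression against knockout (15.4%). edgeR on the recovered reads also called Lipg in pair-fed overexpression against knockout livers (adjusted p = 0.0345) and 0 of the 8 genes in the other 5 contrasts.

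**Figure D3:**
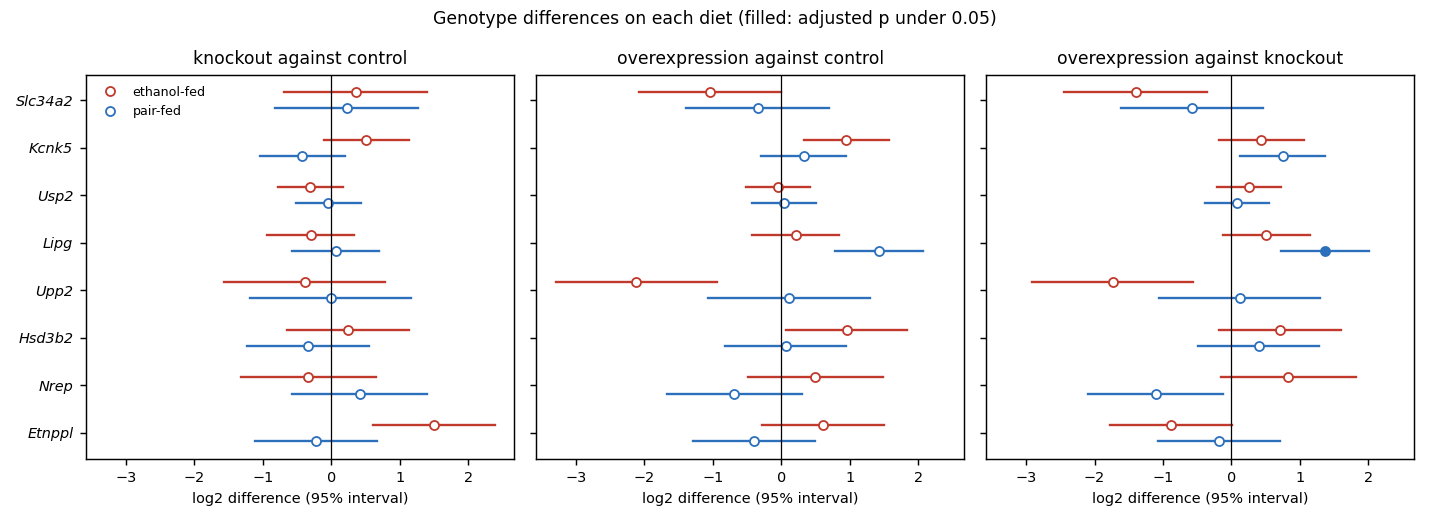
Log2 differences between genotypes with 95% intervals (limma) for each gene on ethanol and pair-fed diet, filled where the adjusted p is under 0.05. The filled point is Lipg in pair-fed overexpression against knockout livers, at 1.36.

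The genes most like each member were taken as the highest Pearson correlations of log2(CPM + 1) over the 18 libraries, among genes that average at least 5 CPM. Diet sets much of such a correlation, and the value after subtracting group means is given beside it. For Upp2 the value within groups was close to that over all libraries. Gpd1l reached r = 0.91 over all libraries and 0.91 within groups, Serpina6 (corticosteroid-binding globulin) 0.89 and 0.88, and Glt1d1 0.87 and 0.85. Like Upp2, Serpina6 had a high library in ethanol-fed knockout replicate 3 (342 CPM, against 187 and 141 CPM in replicates 1 and 2) and a low one in ethanol-fed control replicate 1 (124.5 CPM, against 363 and 384 CPM). Etnppl was closest to Sirt7 (0.90, within groups 0.75), Gm7977 (0.88, 0.70) and Ybx1 (0.86, 0.55). Kcnk5 was closest to Usp2 (0.91, within groups 0.40), Arrdc2 (0.91, 0.54) and Map2k6 (0.91, 0.39), and Usp2 to Arrdc2 (0.93, 0.61), Foxo3 (0.92, 0.65) and Kcnk5. Lipg was closest to Usp2 (0.91, within groups 0.74), the clock output gene Dbp (0.90, 0.50) and Ipo8 (0.90, 0.55). Nrep had Pbld1 (0.93, 0.60), Apol7a (0.92, 0.63) and Dnajc22 (0.91, 0.32), and Hsd3b2 had March8 (0.93, 0.64), Epb41l4b (0.91, 0.72) and Pbld1 (0.90, 0.68). Slc34a2 had Eif1a (0.94, within groups 0.43), Gtf2b (0.93, 0.72) and Jam2 (0.92, 0.52). The choice depended on the measure. By rank (Spearman) correlation the genes named for Slc34a2 stood at 12, 37 and 76 of 8456. Those for Upp2 stood at 32, 50 and 57, and those for Kcnk5 at 19, 6 and 53. First by that measure were Sirt7 for Etnppl, March8 for Hsd3b2, Arrdc2 for Usp2 and Dbp for Lipg. For the other members a gene not named here came first. Among the 21 pairs of the 7 genes that were lower with ethanol, r ran from 0.54 to 0.91 over all libraries, and within groups from -0.28 to 0.74 with a median of 0.11.

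Relatives and pathway neighbours of the 8 genes were read from 8 lists, and their ethanol differences were tested with limma. The background share of called genes was 9.9% in knockout (4.1% higher, 5.79% lower), 1.15% in overexpression (0.401% higher, 0.751% lower) and 2.7% in control livers (1.02% higher, 1.67% lower). With a term for the Xist pattern, which only the 3 pair-fed controls can separate from the knockout contrast, no knockout ethanol call named here passed. In the list of phosphate transporters all 5 relatives of Slc34a2 were on the panel, 3 were tested and 1 rose in the knockout, the phosphate importer Slc20a1 (0.84 ± 0.25, adjusted p = 0.0415). Slc20a1 was called in no other genotype (-0.40 in overexpression and 0.30 in control livers). The call was lost in 10 of 30 alternatives, 7 of them the omission of 1 library. Slc20a2 (0.47 in knockout) and the exporter Xpr1 (0.63 in knockout) passed in no genotype. The 3 tested two-pore channels were Kcnk10, Kcnk6 and Kcnk1, of 11 on the panel. Kcnk10 fell in all genotypes, with differences of -2.14 in knockout (adjusted p = 0.00143), -1.56 in overexpression (adjusted p = 0.0415) and -2.46 in control livers (adjusted p = 0.00125, limma). The overexpression call was lost in 17 of 30 alternatives, and no single library ended the other calls. The control call of Kcnk10 was lost with the Xist term (-2.07, adjusted p = 0.127) and in the libraries with Ddx3y above Xist (adjusted p = 0.1114). Kcnk10 averaged 0.431 against 5.51 CPM, 1.01 against 4.74 CPM and 0.424 against 6.91 CPM in those 3 genotypes, ethanol-fed against pair-fed. The ethanol-fed means were near or below the filter's minimum of 1 CPM. Kcnk10 thus passed the filter mainly through its pair-fed groups, and its tests lean on the groups where it is high. Kcnk6 fell by 0.94 in the knockout (adjusted p = 0.0207, limma), and Kcnk1 stayed under 2 CPM in every library. The Kcnk6 call was lost in 4 of 29 alternatives, among them the omission of ethanol-fed or pair-fed knockout replicate 2.

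Of 13 tested genes of phosphoethanolamine and choline phospholipids, the neighbours of Etnppl, 1 fell in each genotype. It was Pcyt2, which makes CDP-ethanolamine and so competes for the substrate of Etnppl, with differences of -1.15 ± 0.22 in knockout, -0.96 ± 0.22 in overexpression and -1.16 ± 0.22 in control livers (adjusted p = 0.00328, 0.0395 and 0.00942, limma). The control call was lost in 6 of 31 alternatives. Among them were the omission of ethanol-fed or pair-fed control replicate 2, the Xist term and the libraries with Ddx3y above Xist (-0.79). The overexpression call was lost in 10 of 31 alternatives. Etnk2, the kinase that makes phosphoethanolamine, rose in the knockout to 747 ± 154 CPM with ethanol, against 308 ± 34.6 CPM when pair-fed (1.26 ± 0.23, adjusted p = 0.00277). Etnk2 was also lower in ethanol-fed overexpression than in ethanol-fed knockout livers (320 ± 70.2 against 747 ± 154 CPM, -1.23, adjusted p = 0.0106), a contrast matched on the Xist pattern, in which 1.88% of all genes passed. This call was lost without ethanol-fed knockout replicate 2 and with no filter. Its ethanol difference differed by -1.81 between overexpression and knockout (adjusted p = 0.0105, limma; 1.05% of all genes passed). This contrast holds the pair-fed knockout group and is not matched on the Xist pattern, and the call was lost with the Xist term (-1.49, adjusted p = 0.526) and with no filter. Chka rose in the knockout (1.69, adjusted p = 0.0180, limma), while Chpt1 and Pemt were called in no genotype. The Chka call was lost in 5 of 30 alternatives, among them the omission of ethanol-fed knockout replicate 1 or 2 or pair-fed knockout replicate 3.

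The TGF-beta list, set beside Nrep, had 14 tested genes, of which 2 rose in knockout, 0 in overexpression and 2 in control livers. The receptor gene Tgfbr2 rose in knockout (56.7 ± 9.49 against 14.7 ± 2.97 CPM, 1.88) and in control livers (55.6 ± 12.6 against 11.9 ± 1.94 CPM, 2.12), with adjusted p of 0.000607 and 0.000798 from limma. The control call of Tgfbr2 was lost with the Xist term (1.91, adjusted p = 0.0547) and in the libraries with Ddx3y above Xist (adjusted p = 0.0956). In overexpression livers Tgfbr2 had 27.8 ± 3.91 CPM with ethanol and 22.7 ± 11.6 CPM without, a difference of 0.40 that was not called. Skil rose in the knockout (1.12, adjusted p = 0.0115), a call lost without pair-fed knockout replicate 3. Skil was lower in ethanol-fed overexpression than knockout livers (17.8 ± 0.436 against 41.5 ± 5.55 CPM, adjusted p = 0.0250), a call lost in 6 of 31 alternatives, and Smad4 was called in no contrast.

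Of 15 tested steroid dehydrogenases and reductases, 2 fell in knockout (Hsd17b6 at -2.03 and Hsd17b11 at -0.78, lost in 5 and 9 of 30 alternatives), 1 in overexpression and 0 in control livers. The overexpression call was Hsd3b5, a relative of Hsd3b2 transcribed mainly in male mouse liver. It stood at 0 to 0.542 CPM in ethanol-fed and 1.57 to 64.6 CPM in pair-fed overexpression livers (-3.98 on the log2(CPM + 1) scale, adjusted p = 0.0135, limma). This call was lost in 6 of 30 alternatives, among them the omission of ethanol-fed overexpression replicate 2 or 3 or pair-fed overexpression replicate 1 or 3. Pair-fed knockout livers, all with Xist above Ddx3y, had 0 to 0.174 CPM of Hsd3b5. Hsd3b5 reached the filter's minimum of 1 CPM in every pair-fed overexpression library and in no library of ethanol-fed overexpression or pair-fed knockout livers. Its tests thus lean on the group where it is high. It was called in pair-fed overexpression against knockout livers too (4.19, adjusted p = 0.00595, limma), where genotype and the Xist pattern cannot be told apart. There the call was lost in 3 of 29 alternatives, which were the compared groups alone, no filter and the Xist term. Hsd11b1 was lower in that contrast (-0.78, adjusted p = 0.0488), a call lost in 22 of 30 alternatives, and Hsd17b4 and Akr1d1 were called in no contrast.

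Clock genes bear on Usp2, whose liver rhythm they drive in mice. Of 17 tested, 2 rose and 3 fell in knockout, 2 fell in overexpression and 1 fell in control livers. Dbp fell in knockout (-1.96) and in overexpression livers (-2.33, 48.5 ± 10.2 CPM with ethanol against 249 ± 56.0 CPM when pair-fed; adjusted p = 0.0173, limma). Nr1d1, a repressor of the clock, was called in overexpression livers (17.2 ± 4.09 CPM with ethanol against 74.2 ± 16.3 CPM without, -2.05, adjusted p = 0.0120). The overexpression calls of Dbp and Nr1d1 were each lost without ethanol-fed replicate 2 or pair-fed replicate 3, that of Dbp also without ethanol-fed replicate 3, and both with no filter. The ethanol difference of Nr1d1 was also called lower in overexpression than in knockout livers (limma), where 1.05% of all genes passed. This contrast is not matched on the Xist pattern, and the call was lost in 11 of 30 alternatives, among them the Xist term. The knockout call of Dbp was lost in 4 of 30 alternatives, among them the omission of pair-fed knockout replicate 2 or 3. Pair-fed overexpression livers had more Nr1d1 than pair-fed controls (74.2 ± 16.3 against 12.9 ± 1.91 CPM, 2.42, adjusted p = 0.00685) and pair-fed knockout livers (20.4 ± 11.5 CPM, 1.95, adjusted p = 0.00937). The call against controls was lost in 5 of 31 alternatives, which were the omission of replicate 2 of either pair-fed group, no filter, the Xist term and the libraries with Ddx3y above Xist (2.44 in these last 2). The call against knockout was lost with no filter and with the Xist term. Usp2 did not share that gap, at 0.04 (95% interval -0.43 to 0.51) against pair-fed controls and 0.08 (-0.39 to 0.55) against pair-fed knockout livers. Per3 fell in knockout (-2.02) and control livers (-1.63, a call lost in 15 of 31 alternatives). Clock and Nfil3 rose in knockout livers (1.00 and 1.21), calls lost in 3 and 7 of 30 alternatives. Rora was lower in ethanol-fed overexpression than knockout livers (-0.94, adjusted p = 0.0125, limma), a call lost without ethanol-fed knockout replicate 2 or ethanol-fed overexpression replicate 2 or 3. Nr1d2 and Bhlhe40, among the most abundant genes of the list, were not called.

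**Figure D4:**
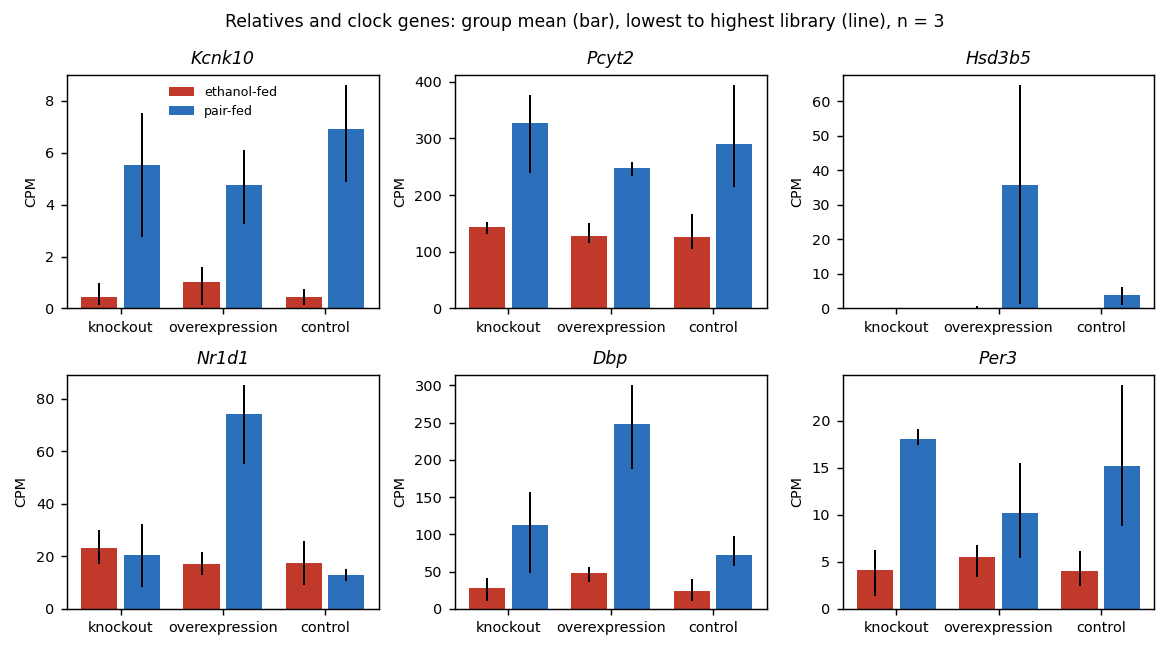
Mean CPM (bars) with the lowest to highest library (lines, n = 3) of Kcnk10, Pcyt2, Hsd3b5, Nr1d1, Dbp and Per3, with ethanol-fed left of pair-fed in each genotype. Nr1d1 averages 74.2 CPM in pair-fed overexpression livers and 12.9 to 23.3 CPM in the other 5 groups.

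Among 17 tested lipases and genes of high-density lipoprotein, the partners of Lipg, 3 fell in knockout livers, Pltp (-1.89), Lpl (-1.63) and Lipa (-0.91), lost in 2, 16 and 7 of 30 alternatives. In overexpression and control livers 0 of them passed. Apoa1, Apoa2 and Apoe, the most abundant of them, differed by -0.36 to 0.08 across the 3 genotypes and were not called. Pnpla2 was lower in ethanol-fed overexpression than knockout livers (76.1 ± 7.91 against 168 ± 36.0 CPM, -1.12, adjusted p = 0.0153, limma). This call was lost with no filter and without ethanol-fed overexpression replicate 1 or 2. Of 15 tested genes of pyrimidine nucleosides, the neighbours of Upp2, 1 fell in control livers, the nucleoside carrier Slc29a1 (-1.12, adjusted p = 0.0181, lost in 7 of 31 alternatives), and 0 passed in knockout or overexpression livers. Tymp, which cleaves thymidine, was higher in pair-fed overexpression than knockout livers (131.1 ± 35.7 against 22.8 ± 3.75 CPM, 2.45, adjusted p = 0.0316, limma), a call lost in 8 of 30 alternatives, among them the term for the Xist pattern, with which the difference was -0.43. Dpyd, Dpys and Upb1, the enzymes that break down the uracil made by Upp2, had ethanol differences of -0.66 to -0.18, none of them called. The lists' median ethanol differences lay between -0.94 and 0.63, beside medians of -0.05 in knockout, -0.07 in overexpression and -0.09 in control livers over all genes.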

How the data were processed

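Liver RNA of 18 libraries was read with the Ion AmpliSeq mouse transcriptome panel (1 amplicon per gene), per the labels' protocols. The authors deposited CPM for 23930 genes, with aligner and genome build not given in the sources used here. Per the file headers, the per-library log2 values were made with ampliSeqRNA 5.10.1.2, and they equal log2(CPM + 1) of the deposited CPM table within 2e-06. Whole reads were recovered from the CPM: at least 99.99% of values in each library came out whole within 0.02 reads. Libraries of 4680152 to 5806228 reads give 0.172 to 0.214 CPM per read.

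Genes with at least 1 CPM in 3 libraries (11720) were fitted with limma 3.58.1 (lmFit, eBayes with trend, R 4.3.3) on log2(CPM + 1), 1 mean per group, p-values adjusted by Benjamini-Hochberg within a contrast. The fit was also run on simulated reads with known changes in 1 group, made in genes that average at least 5 CPM. The simulation held no diet effect and no Xist pattern. It does not bear on contrasts tied to that pattern or on scarcer genes. Alternatives were other filters (none, 10 CPM) and pseudocounts (0.1, 10), TMM, quantile normalization, array weights, the replicate number or barcode range as a block, a term for Xist above Ddx3y, the libraries with Ddx3y above Xist alone, the compared groups alone, edgeR 4.0.16 (quasi-likelihood) on recovered reads, and each library left out. edgeR on those reads called 1261 genes with ethanol in knockout, 136 in overexpression and 284 in control livers, against 1160, 135 and 316 by limma. Libraries of a group differed beyond sampling noise, with a chi-square per degree of freedom of 10.6 to 62.5 over 18 pairs. The genes and lists were chosen with earlier results of these data known. Named beside the 8 genes are the 3 most alike genes of each, and from each list the called genes and the 3 most abundant. A called gene of the TGF-beta list and one of the clock list are counted there but not reported here.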

Additional observations from a re-analysis of the deposited data

How the results depend on the processing

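Between genotypes within a diet, counts of the 8 genes called kept their value in every alternative, except in 5 contrasts. Gaps between ethanol differences are left out of these counts, since they rest on values that the choice of genes used. In pair-fed overexpression against knockout livers the count was 1, and 0 with no filter on low values or with the Xist term, and 0 to 1 as each library was left out. In pair-fed overexpression against control livers it was 0, and 1 (Lipg) with a pseudocount of 10, and 0 to 1 as each library was left out (1 without pair-fed knockout replicate 1 or ethanol-fed overexpression replicate 3). With array weights it was 1 in ethanol-fed knockout against control (Etnppl), 1 in ethanol-fed overexpression against control (Upp2) and 1 in ethanol-fed overexpression against knockout livers (Slc34a2). That last count, 0 otherwise, was 0 to 1 as each library was left out (1 without ethanol-fed knockout replicate 3). The cause was not tested. Of 72 fitted values, which include the gaps between ethanol differences, 27 changed sign under at least 1 alternative, with a size of at most 0.82 on the log2 scale. With the replicate block the counts were 1 in pair-fed overexpression against knockout and 0 in the other 5 contrasts between genotypes within a diet. Same-numbered libraries had a median correlation of 0.03 (others -0.01), and 5 of 18 libraries correlated best with their own number, so the numbers give no pairing. The fit to libraries with Ddx3y above Xist forms no contrast with the pair-fed knockout. Depth limits Slc34a2, whose pair-fed overexpression group had 3 reads. Over all genes, counts of calls moved more: with ethanol 1160 in knockout (0 with the Xist term to 2235 with array weights), 135 in overexpression (16 with no filter to 505 with array weights) and 316 in control livers (21 in the libraries with Ddx3y above Xist to 537 with array weights). On ethanol, overexpression against knockout gave 220 (67 to 766), overexpression against control 12 (0 to 71) and knockout against control 2 (from 1, and more than in any other alternative with array weights). The pair-fed counts in that order were 160 (0 to 287), 17 (1 to 86) and 1 (0 to 4). For the difference of ethanol responses they were 123 (1 to 304), 0 (0 to 27) for overexpression against control and 0 (0 to 3) for knockout against control.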
